A study of Homo sapiens with 8 samples.

Results

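The genes described here are the ID proteins, the E-proteins they bind and 3 genes of the BMP pathway that feeds into them, measured by RNA sequencing of DU145 cells with and without exogenous SOX11. The members were taken by symbol: the ID inhibitors ID1, ID2, ID3 and ID4, the class I basic helix-loop-helix (bHLH) E-proteins TCF3, TCF4 and TCF12, and the BMP genes BMP4, SMAD6 and BMPR1A. Of these 10 symbols, 9 had a row among the 32066 genes of the count table. ID4 was not analysed here. DU145 is an established epithelial prostate carcinoma line, labelled as coming from a brain metastasis. The control group held 4 libraries of DU145 labelled control, and the SOX11 group held 4 libraries of DU145 labelled SOX11 overexpression, SOX11 being a SOX-family transcription factor active in developing neurons. The labels do not say how SOX11 was introduced, what the control cells received, or whether either group is 1 clone or a pool. They also do not say whether libraries of a group came from separate cultures, so p-values measure the spread between these libraries, which may be technical.

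ID proteins carry a helix-loop-helix dimerisation domain but lack the basic region that contacts DNA. They pair with E-proteins and keep them from binding E-boxes, the DNA sites at which E-protein dimers, or dimers of an E-protein with a class II bHLH factor, regulate transcription. ID genes are classical targets of BMP signalling: a BMP ligand such as BMP4 binds type I receptors such as BMPR1A and a type II receptor, and the phosphorylated SMAD proteins then act on ID promoters, while SMAD6 is an inhibitory SMAD that feeds back on the receptor.

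SOX11 itself had 0 counts in the 4 control libraries and 303 to 317 counts in each SOX11 library, at least 404-fold higher when 3 counts over the control group are taken as the floor. Total counts were 14641250 to 18706095 per library. A SOX11 library stood apart from the other 7. SOX11 replicate 1 had 95 counts of KLK3, 161 of KLK2 and 24 of TMPRSS2, genes of luminal prostate cells, against at most 4, 3 and 1 in any other library. Levels below are in CPM (counts relative to the TMM-scaled library size, on the usual CPM scale). The member results are given with and without that library, and for the genes of the pathway lists the calls without it are given at the end of the lists. The part of those transcripts in the results was not tested beyond this. All 8 epithelial markers listed were detected and tested. At an edgeR adjusted p under 0.05, 4 keratins, KRT8, KRT18, KRT19 and KRT7, were lower with SOX11 and ESRP1 was higher. Over all genes tested, 20.0% passed that threshold. The KRT7 groups overlapped, and ESRP1 was at a mean of 1.51 CPM in controls and 2.66 CPM with SOX11. EPCAM (edgeR adjusted p = 0.142), CDH1 (0.660) and CLDN7 (0.935) did not pass, although all SOX11 libraries were above all controls for EPCAM. KRT8 went from 839.9 ± 82.6 to 590.4 ± 7.10 CPM (SD, n = 4 each). The summed level of 10 fibroblast markers was 3.33 to 5.43 CPM in controls and 5.90 to 7.71 CPM with SOX11, of which only COL1A1 passed the filter and it was higher. The part of these transcripts in the results was not tested. Of the fibroblast list 3 of 10 genes had no count or no row, of the 8 blood cell markers 4, and of the 6 endothelial markers 1. Blood cell markers summed to at most 1.01 CPM and endothelial markers to at most 0.832 CPM in any library.

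The proximal promoters of ID1, ID2, ID3, TCF3, SMAD6 and BMPR1A are shown because these are the 6 members whose levels were called different with SOX11, each with 1 RefSeq start site in the table. Each is the 250 bases before the RefSeq start site on GRCh38.p14, written 5′ to 3′ on the strand of the gene. They lie at chr20:31605039-31605288 (plus strand) for ID1, chr2:8681806-8682055 (plus) for ID2, chr1:23559502-23559751 (minus) for ID3, chr19:1652616-1652865 (minus) for TCF3, chr15:66701986-66702235 (plus) for SMAD6 and chr10:86755513-86755762 (plus) for BMPR1A. The ID2 and ID3 stretches lie inside the longer gene models that GENCODE 29 gives, and those of ID1 and SMAD6 reach a few bases into them. Capitals mark the motif letters found.
ID1: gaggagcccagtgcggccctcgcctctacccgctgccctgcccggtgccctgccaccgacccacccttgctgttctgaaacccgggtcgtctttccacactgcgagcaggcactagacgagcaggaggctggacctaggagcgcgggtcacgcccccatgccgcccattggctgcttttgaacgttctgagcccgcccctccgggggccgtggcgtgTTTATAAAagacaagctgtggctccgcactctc
ID2: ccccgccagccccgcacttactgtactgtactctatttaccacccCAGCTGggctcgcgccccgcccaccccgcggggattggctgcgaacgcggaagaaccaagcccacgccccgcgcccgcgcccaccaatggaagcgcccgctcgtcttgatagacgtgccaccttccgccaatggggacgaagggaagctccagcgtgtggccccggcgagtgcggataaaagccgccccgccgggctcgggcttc
ID3: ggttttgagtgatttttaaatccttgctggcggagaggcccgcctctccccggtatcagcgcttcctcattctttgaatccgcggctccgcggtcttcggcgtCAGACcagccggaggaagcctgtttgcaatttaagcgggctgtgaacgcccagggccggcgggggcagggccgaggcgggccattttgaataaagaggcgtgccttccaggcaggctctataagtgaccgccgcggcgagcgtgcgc
TCF3: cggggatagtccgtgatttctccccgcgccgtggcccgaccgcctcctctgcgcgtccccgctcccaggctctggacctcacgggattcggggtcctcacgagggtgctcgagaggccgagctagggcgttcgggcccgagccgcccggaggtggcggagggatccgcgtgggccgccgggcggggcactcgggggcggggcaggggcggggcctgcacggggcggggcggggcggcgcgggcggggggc
SMAD6: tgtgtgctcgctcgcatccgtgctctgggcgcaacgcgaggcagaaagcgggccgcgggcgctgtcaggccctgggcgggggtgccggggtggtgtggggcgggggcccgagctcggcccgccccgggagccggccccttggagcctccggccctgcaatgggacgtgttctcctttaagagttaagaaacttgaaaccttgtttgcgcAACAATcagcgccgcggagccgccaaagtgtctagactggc
BMPR1A: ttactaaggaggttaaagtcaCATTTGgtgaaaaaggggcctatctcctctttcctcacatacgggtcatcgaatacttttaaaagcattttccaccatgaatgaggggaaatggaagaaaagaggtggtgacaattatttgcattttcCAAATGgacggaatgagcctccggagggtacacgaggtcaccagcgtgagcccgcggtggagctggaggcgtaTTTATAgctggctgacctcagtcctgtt

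The motifs were searched on both strands of these stretches: the E-box CANNTG, the GC-rich SMAD1/5 site GGCGCC, the SMAD box CAGAC, the SOX cores AACAAT and ACAAAG, and the TATA box TATAAA. ID1 held TATAAA with its first base 31 bases before the start, overlapped by a match on the other strand, TTTATA at 33. ID2 held an E-box, CAGCTG, at 205 bases. ID3 held a SMAD box, CAGAC, at 147 bases, and SMAD6 a SOX core, AACAAT, at 41 bases. BMPR1A held 2 E-boxes, CATTTG at 229 and CAAATG at 101 bases, and TTTATA at 28 bases, and TCF3 held none of the motifs. A SOX core was thus found in 1 of these 6 stretches, and among the members not called it was in 4 of 5 stretches of TCF12 and 0 of 3 of BMP4. Among 35116 promoter stretches of the same length, 61.8% held an E-box, 16.4% GGCGCC, 38.0% a SMAD box, 20.9% a SOX core and 10.7% a TATA box. A match is a description of letters and does not show a bound site. The G and C content of the stretches was 66.0% for ID1, 69.2% for ID2, 62.0% for ID3, 79.6% for TCF3, 68.0% for SMAD6 and 47.2% for BMPR1A.

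With SOX11, ID2, ID3, TCF3, SMAD6 and BMPR1A were higher, and ID1 was slightly lower. TCF12 and BMP4 did not pass the test, and TCF4 was too low to test, with 1 count in the controls and 1 in the SOX11 libraries. Of the 8 members tested, 5 were called higher and 1 lower at an adjusted p under 0.05 in edgeR's quasi-likelihood test. In bulk RNA, fewer cells with a transcript and less of it per cell cannot be told apart. Over all 15665 genes tested, 20.0% were called, 10.3% higher and 9.67% lower. The groups of 4 libraries did not overlap for the same 5 higher members, against 21.1% of all genes tested (10.6% higher and 10.4% lower). The median log2 fold change was 0.23 over the 8 members and 0.00 over all genes tested. The members were chosen with earlier results of these data known, so these counts do not test the members as a set. Without SOX11 replicate 1 the 5 higher members were called again and ID1 was not, while 16.4% of genes were called in that fit.

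**Figure D1:**
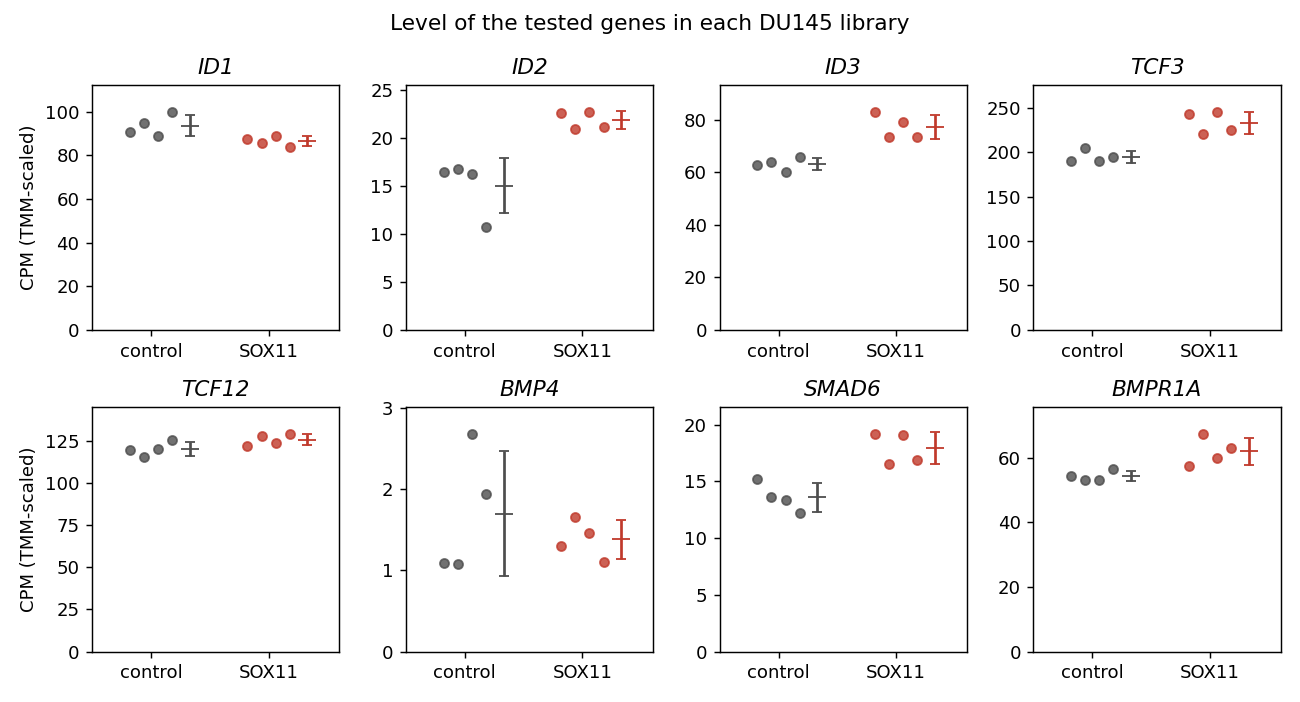
TMM-scaled CPM (y axis, linear from 0) of the 8 tested genes in each control (grey) and SOX11 (red) library; each point is a library in replicate order, and the cross and bar are the mean and SD of 4 libraries. ID2, ID3, TCF3, SMAD6 and BMPR1A have all 4 SOX11 libraries above all 4 controls, and control replicate 4 is the low ID2 point at 10.7 CPM.

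Among the ID genes, ID2 rose the most. ID2 (ENSG00000115738, chr2:8678845-8684453, plus strand, GRCh38) was at 16.5, 16.7, 16.2 and 10.7 CPM in control replicates 1 to 4 and at 22.6, 20.9, 22.7 and 21.1 CPM in SOX11 replicates 1 to 4. All SOX11 libraries were above all controls, and control replicate 4 was well below the other controls. The mean went from 15.0 ± 2.87 to 21.8 ± 0.936 CPM (SD, n = 4 each), a log2 fold change of 0.53 ± 0.0965 (SE; edgeR adjusted p = 0.000493). Without control replicate 4 the log2 fold change was 0.40 (edgeR adjusted p = 0.000114), and without SOX11 replicate 1 it was 0.51 (edgeR adjusted p = 0.00456). ID2 restrains differentiation in many lineages and is also known to bind the retinoblastoma protein.

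An antisense transcript, ID2-AS1, named after its values were seen, lies on the opposite strand and shares 38 exonic bases with ID2. ID2-AS1 was at 6.07, 5.03, 6.25 and 4.92 CPM in controls and 6.11, 7.93, 7.24 and 7.62 CPM with SOX11, and the groups overlapped. It was called higher, with a log2 fold change of 0.38 ± 0.117 (SE; edgeR adjusted p = 0.0195), a call that ended in 5 of 16 alternatives, and the value was 0.45 (edgeR adjusted p = 0.00984) without SOX11 replicate 1. The libraries were made with a stranded kit, but the strand setting of the counting was not given in the sources used here, so reads over the shared bases cannot be assigned with certainty. The processed pseudogene ID2B had 1 count over all libraries.

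ID3, a paralog strongly induced by BMP signalling in many cell types, also rose. ID3 (ENSG00000117318, chr1:23557918-23559794, minus strand) was at 62.8, 63.8, 60.0 and 65.8 CPM in control libraries and 82.8, 73.2, 79.0 and 73.5 CPM with SOX11. The lowest SOX11 library stood above the highest control. The mean went from 63.1 ± 2.42 to 77.1 ± 4.63 CPM (SD, n = 4 each), a log2 fold change of 0.29 ± 0.0452 (SE; edgeR adjusted p = 1.79e-05), and without SOX11 replicate 1 it was 0.25 (edgeR adjusted p = 0.000278). Among all genes tested, 83.9% had a smaller absolute log2 fold change than ID3.

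ID1, the most abundant of the ID genes per length and the paralog most often used as a BMP reporter, went the other way by a small amount. ID1 (ENSG00000125968, chr20:31605283-31606515, plus strand) was at 90.5, 94.9, 88.9 and 99.7 CPM in controls and 87.2, 85.4, 88.9 and 83.7 CPM with SOX11. The groups overlapped, since SOX11 replicate 3 lay just above control replicate 3. The mean went from 93.5 ± 4.87 to 86.3 ± 2.27 CPM (SD, n = 4 each), a log2 fold change of -0.12 ± 0.0404 (SE; edgeR adjusted p = 0.0420; 95% interval -0.20 to -0.03). The call ended in 9 of 16 alternatives, among them 5 fits that left out 1 library. Leaving out SOX11 replicate 1 gave -0.12 (edgeR adjusted p = 0.0578), SOX11 replicate 2 gave -0.11 (0.0682) and SOX11 replicate 4 gave -0.10 (0.109). Leaving out control replicate 2 gave -0.11 (edgeR adjusted p = 0.111), and control replicate 4 gave -0.085 (0.186). The sign was negative in all 16.

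**Figure D2:**
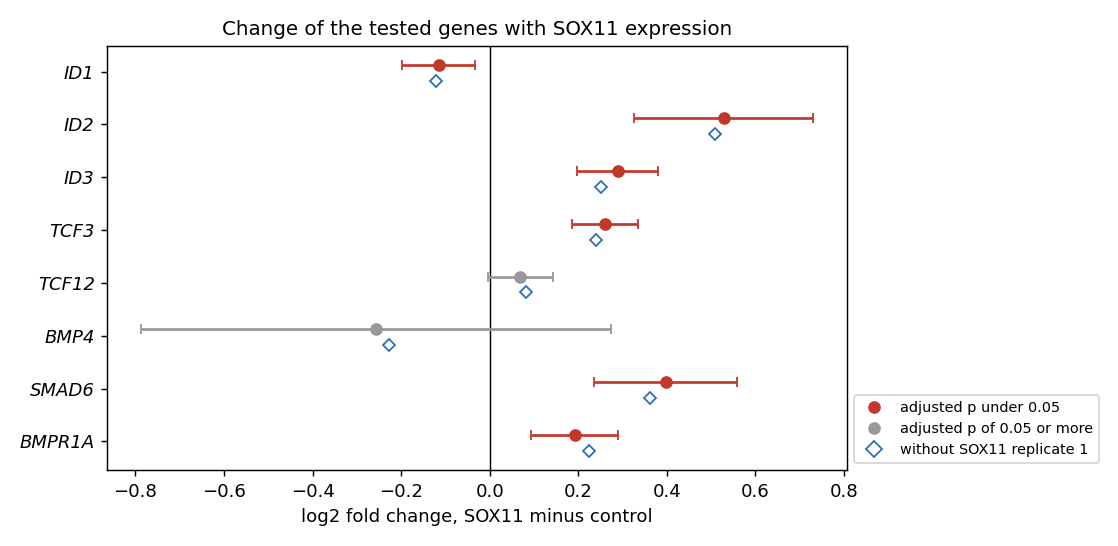
Log2 fold change, SOX11 minus control (x axis), of the 8 tested genes from edgeR on all 8 libraries (circles, with 95% intervals) and without SOX11 replicate 1 (diamonds); red circles have an adjusted p under 0.05 and grey ones do not. ID2 has the largest change at 0.53, ID1 lies at -0.12 and BMP4 has the widest interval, -0.79 to 0.27.

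Because the paralogs are counted in the same library, their ratio needs no scaling between libraries. The ID1 to ID3 count ratio was 1.44, 1.49, 1.48 and 1.51 in control replicates and 1.05, 1.17, 1.13 and 1.14 with SOX11. It was lower in all 4 SOX11 libraries than in any control, with means of 1.48 ± 0.0302 and 1.12 ± 0.0481 (SD, n = 4 each). The exact two-sided permutation test on the log2 ratio, whose smallest possible p is 0.0286 with 4 against 4, gave p = 0.0286 for a change of -0.40, or 0.0381 after Benjamini-Hochberg adjustment over the 4 pairs that could be tested of the 9 planned. Pairs with TCF4 had too few counts for a ratio, and pairs with ID4 were not analysed here.

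The ID1 to ID2 ratio was 5.49, 5.68, 5.48 and 9.28 in control replicates and 3.86, 4.08, 3.92 and 3.97 with SOX11. The groups did not overlap, and control replicate 4 was the high value. The log2 ratio differed by -0.67 (exact permutation p = 0.0286, adjusted 0.0381), and by -0.49 without control replicate 4. The ID2 to ID3 ratio was 0.262, 0.262, 0.270 and 0.163 in control replicates and 0.273, 0.286, 0.287 and 0.287 with SOX11. Here the groups were adjacent, and the difference of 0.27 on the log2 scale (exact permutation p = 0.0286, adjusted 0.0381) was 0.10 without control replicate 4, so 1 library sets most of its size. Without SOX11 replicate 1 the log2 ratio differed by -0.37 for ID1 to ID3, -0.66 for ID1 to ID2 and 0.29 for ID2 to ID3. The test was not repeated in these leave-outs. In each library the log2 ID1 to ID3 ratio is the sum of the log2 ID1 to ID2 and ID2 to ID3 ratios. The p-values of the ID ratios are therefore not separate results.

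**Figure D3:**
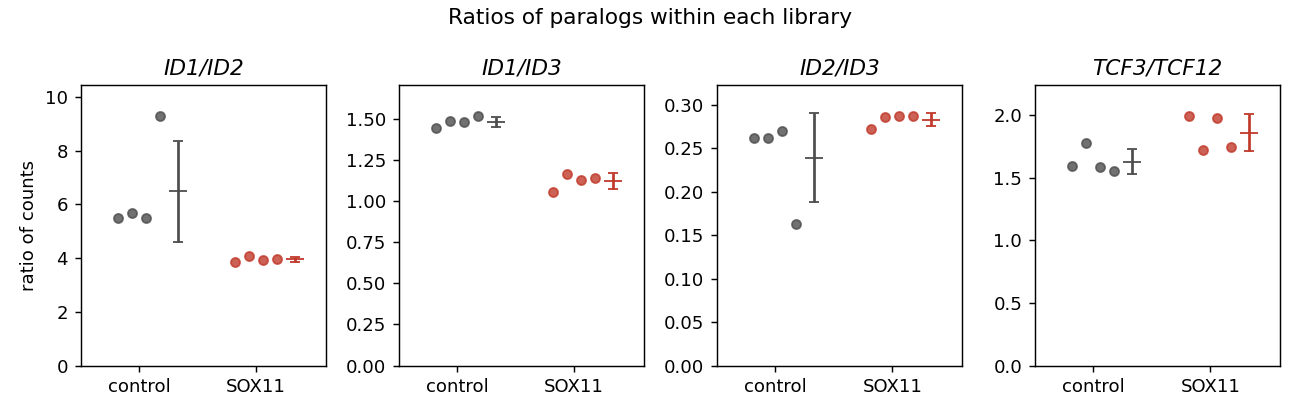
Ratio of raw counts of 2 paralogs within each library (y axis, linear from 0) for controls (grey) and SOX11 (red); points are libraries in replicate order, with the mean and SD of 4. The ID1 to ID3 ratio falls into separate bands around 1.48 and 1.12, while the ID2 ratios include control replicate 4 at 9.28 and 0.163.

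The E-proteins were led by TCF3, whose gene encodes the splice forms E12 and E47. TCF3 (ENSG00000071564, chr19:1609290-1652605, minus strand) was at 189.9, 204, 190.2 and 195 CPM in controls and 243, 221, 245 and 225 CPM with SOX11. Every SOX11 library was above every control. The mean went from 195 ± 6.71 to 233 ± 12.3 CPM (SD, n = 4 each), a log2 fold change of 0.26 ± 0.0364 (SE; edgeR adjusted p = 3.38e-06), and without SOX11 replicate 1 it was 0.24 (edgeR adjusted p = 6.24e-05). Counts are per gene, and GENCODE 29 lists 20 TCF3 transcripts, so E12 and E47 cannot be told apart. The pseudogene TCF3P1 had 4 counts in the controls and 2 with SOX11.

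TCF12, also called HEB, did not pass the test. TCF12 (ENSG00000140262, chr15:56918623-57299281, plus strand) was at 119, 115, 119.7 and 125 CPM in controls and 122, 128, 124 and 129 CPM with SOX11, with overlapping groups. The log2 fold change was 0.070 ± 0.0361 (SE; edgeR adjusted p = 0.187), with a 95% interval of -0.0041 to 0.14, and it was 0.083 without SOX11 replicate 1. The TCF3 to TCF12 count ratio was 1.63 ± 0.0999 in controls and 1.86 ± 0.145 with SOX11 (SD, n = 4 each), overlapped between groups and differed by 0.19 on the log2 scale (exact permutation p = 0.0857, adjusted 0.0857), or by 0.16 without SOX11 replicate 1. A different change of the 2 E-proteins was therefore not shown at this number of libraries. TCF4 (ENSG00000196628, chr18:55222331-55664787, minus strand), the E-protein also called E2-2, had 1 count in control replicate 3, 1 in SOX11 replicate 1 and 0 elsewhere.

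Levels of different genes are compared per kilobase of exonic length (RPKM, computed from CPM). In controls the order was ID1 at 75.8 ± 3.95, ID3 at 35.1 ± 1.35, TCF3 at 32.0 ± 1.10, TCF12 at 12.7 ± 0.443, ID2 at 6.82 ± 1.30, BMPR1A at 4.75 ± 0.135, SMAD6 at 1.59 ± 0.145 and BMP4 at 0.551 ± 0.250 RPKM (SD, n = 4). With SOX11 it was the same order: ID1 at 70.0 ± 1.84, ID3 at 42.9 ± 2.58, TCF3 at 38.4 ± 2.02, TCF12 at 13.3 ± 0.356, ID2 at 9.90 ± 0.424, BMPR1A at 5.42 ± 0.372, SMAD6 at 2.09 ± 0.164 and BMP4 at 0.448 ± 0.0759 RPKM. In controls the range of ID3, 33.4 to 36.6 RPKM, overlapped that of TCF3, 31.2 to 33.6 RPKM, although ID3 was above TCF3 within each of the 4 libraries. The ranges of ID2 and BMPR1A also overlapped, and ID2 was above BMPR1A in 3 of 4 control libraries. With SOX11 the ranges of neighbours did not overlap. With the length of the longest transcript in place of all exonic bases, ID3 was at 50.5 and TCF3 at 43.7 RPKM in controls, and at 61.6 and 52.4 RPKM with SOX11. On that length neither pair overlapped in controls (ID3 48.0 to 52.6 against TCF3 42.7 to 45.9 RPKM, and ID2 5.26 to 8.19 against BMPR1A 4.71 to 5.01 RPKM), so the order of these neighbours beyond their spread depends on the length taken. Without SOX11 replicate 1 the mean RPKM with SOX11 moved by less than 1 SD for each of the 8 genes.

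The make-up of the ID pool by RPKM moved away from ID1. ID1 made up 64.4% ± 1.19 of the summed ID1, ID2 and ID3 level in controls and 57.0% ± 0.965 with SOX11 (SD, n = 4 each). ID3 went from 29.8% ± 0.280 to 34.9% ± 0.936 and ID2 from 5.82% ± 1.23 to 8.06% ± 0.0827. These shares depend on the length taken. With longest-transcript lengths the means of ID1, ID2 and ID3 were 75.8, 7.37 and 50.5 RPKM in controls. With SOX11 they were 70.0, 10.7 and 61.6 RPKM. ID2 and ID3 are higher on that length and ID1 is not, so the ID1 share is smaller in both groups. The summed ID level was 118 ± 4.28 RPKM in controls and 123 ± 4.54 RPKM with SOX11, with overlapping ranges. Summed as CPM, without length, the ID genes were at 165 to 176 CPM in controls and 178 to 193 CPM with SOX11, without overlap. The summed E-protein level (TCF3 and TCF12, with TCF4 left out) was 44.7 ± 0.960 and 51.7 ± 1.71 RPKM without overlap. The ID level per E-protein level was 2.57 to 2.70 in controls and 2.34 to 2.41 with SOX11. With longest-transcript lengths it was 2.10 ± 0.0442 in controls and 1.95 ± 0.0323 with SOX11. Without SOX11 replicate 1 the ID1 share was 57.5%, the ID3 share 34.5%, the ID2 share 8.06% and the ID level per E-protein level 2.37 with SOX11. These sums are given as descriptions, with no test, and they are levels of RNA and not of protein.

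**Figure D4:**
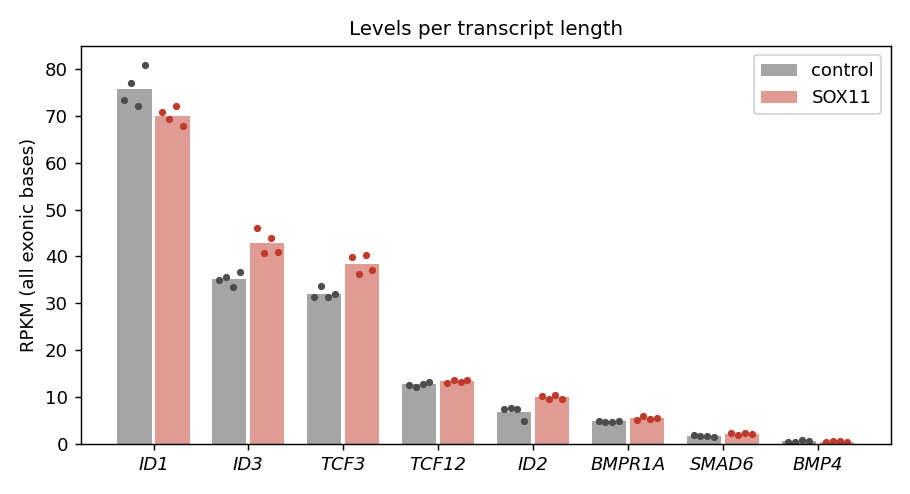
Level per kilobase of exonic length (RPKM, linear axis from 0) of the 8 tested members, ordered by their control level; bars are means of 4 control (grey) or SOX11 (red) libraries and points are libraries in replicate order. ID1 is highest at 75.8 RPKM in controls and 70.0 RPKM with SOX11, and BMP4 lowest at 0.551 and 0.448 RPKM.

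Of the BMP genes, the feedback inhibitor and the receptor rose and the ligand did not pass the test. SMAD6 (ENSG00000137834, chr15:66702228-66782848, plus strand) was at 15.2, 13.6, 13.3 and 12.2 CPM in controls and 19.2, 16.6, 19.1 and 16.9 CPM with SOX11, without overlap. The log2 fold change was 0.40 ± 0.0787 (SE; edgeR adjusted p = 0.000395), and without SOX11 replicate 1 it was 0.36 (edgeR adjusted p = 0.00355). SMAD6 blocks activation of the BMP SMADs by the type I receptors.

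BMPR1A (ENSG00000107779, chr10:86756601-86932838, plus strand) was at 54.4, 53.0, 53.2 and 56.3 CPM in controls and 57.4, 67.3, 59.9 and 62.9 CPM with SOX11. The lowest SOX11 library, replicate 1, was only just above the highest control. The log2 fold change was 0.19 ± 0.0479 (SE; edgeR adjusted p = 0.00415), and it was 0.22 (edgeR adjusted p = 0.00177) without that library. The pseudogenes BMPR1AP1 and BMPR1AP2 had 14 and 11 counts over all libraries, against 3419 in controls and 4020 with SOX11 for BMPR1A.

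BMP4 (ENSG00000125378, chr14:53949736-53958761, minus strand) was at 1.09, 1.08, 2.68 and 1.94 CPM in controls and 1.30, 1.66, 1.46 and 1.11 CPM with SOX11. The controls spanned the SOX11 libraries. It had 104 counts in controls and 90 with SOX11, and its log2 fold change of -0.26 ± 0.259 (SE; edgeR adjusted p = 0.552) had a 95% interval of -0.79 to 0.27, which includes changes of either sign. The coefficient of variation was 45.3% in controls and 17.0% with SOX11. Without control replicate 3 the value was 0.043, and without SOX11 replicate 1 it was -0.23.

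The remaining genes of the pathway were taken from lists of ligands, receptors, SMADs, antagonists and targets. Among 14 BMP and GDF ligands, 3 passed the filter and 0 were called, with a median log2 fold change of 0.062. BMP7, below the filter at 41 counts in all and not tested, was at 0.122 CPM in controls and 0.508 CPM with SOX11, without overlap. The other ligands below the filter that had a row overlapped between groups. The most abundant, BMP8B, was at 9.02 ± 1.17 and 10.3 ± 0.986 CPM (SD, n = 4 each; log2 fold change 0.19, edgeR adjusted p = 0.191). Of 11 receptors and co-receptors, 7 were tested and only BMPR1A was called, with a median of 0.077.

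All 8 SMADs and SMURF ligases were tested, 3 higher and 1 lower, with a median of 0.12. Besides SMAD6, the receptor-activated SMADs SMAD5 and SMAD9 rose. SMAD5 went from 59.5 ± 0.912 to 67.1 ± 2.21 CPM (SD, n = 4 each; log2 fold change 0.17, edgeR adjusted p = 0.00313). SMAD9, itself a known BMP target, went from 7.23 ± 1.04 to 9.34 ± 1.26 CPM (log2 fold change 0.38, edgeR adjusted p = 0.0164), and its call ended without SOX11 replicate 4 (0.28, edgeR adjusted p = 0.0937) and without control replicate 2 (0.28, edgeR adjusted p = 0.105). SMURF1, a ubiquitin ligase for BMP SMADs, was lower by a small amount (-0.13, edgeR adjusted p = 0.0284), a call that ended in 7 of 16 alternatives. SMAD1 (0.072, edgeR adjusted p = 0.406), SMAD7 (0.22, edgeR adjusted p = 0.111) and SMAD4 (0.031, edgeR adjusted p = 0.723) did not pass.

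Of 16 antagonists and modulators, 8 were tested, 1 higher and 3 lower, with a median of 0.055. NOG, which encodes the secreted BMP antagonist noggin, rose from 0.632 ± 0.144 to 1.73 ± 0.276 CPM (SD, n = 4 each; log2 fold change 1.44, edgeR adjusted p = 9.50e-05). FSTL3, a secreted binder of activin and related ligands, fell from 38.2 ± 2.68 to 27.3 ± 1.10 CPM (-0.48, edgeR adjusted p = 1.70e-07). BMPER, a secreted BMP-binding protein, fell from 7.79 ± 0.974 to 4.91 ± 0.664 CPM (-0.67, edgeR adjusted p = 0.000117), and TWSG1, another extracellular BMP modulator, from 98.5 ± 2.99 to 87.2 ± 4.16 CPM (-0.17, edgeR adjusted p = 0.00188). The called members thus included an antagonist that rose and modulators that fell, and these 4 kept their calls in all 16 alternatives.

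Of 12 other BMP-responsive genes, 10 were tested, 3 higher and 1 lower, with a median of 0.19. ATOH8, a bHLH factor, rose from 3.39 ± 0.564 to 6.95 ± 0.401 CPM (SD, n = 4 each; log2 fold change 1.02, edgeR adjusted p = 4.28e-07). HEY1, a bHLH repressor also induced by Notch, rose from 0.418 ± 0.150 to 0.911 ± 0.0976 CPM (1.08, edgeR adjusted p = 0.0168), at 86 counts in all, and its call ended without control replicate 4 (0.87, edgeR adjusted p = 0.0717). HEY1 had values in 14 alternatives and none with DESeq2 or the stricter filter. MSX2, a homeobox gene, fell from 2.16 ± 0.599 to 1.39 ± 0.0634 CPM (-0.63, edgeR adjusted p = 0.0319), a call that ended in 6 of 16 alternatives, including the fit without SOX11 replicate 1 (-0.63, edgeR adjusted p = 0.0671). SMAD9 is the other called member.

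**Figure D5:**
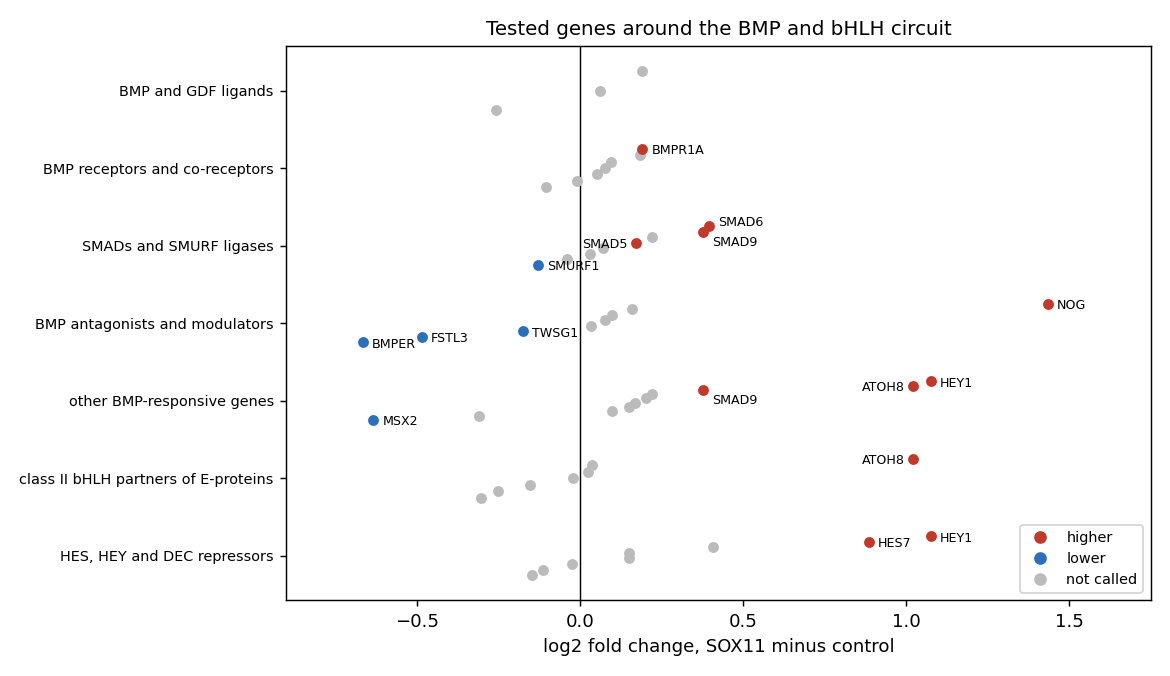
Log2 fold change, SOX11 minus control (x axis), of every tested gene in 7 lists around the BMP and bHLH circuit (rows; points spread vertically only for legibility), with called genes in red (higher) or blue (lower) and named. NOG (1.44), HEY1 (1.08) and ATOH8 (1.02) are the points farthest to the right, and most genes are not called.

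On the side of E-protein partners, most class II bHLH factors were scarce. Of 40 listed, 20 had a row, 7 were tested and ATOH8 alone was called, with a median of -0.022. Of 13 HES, HEY and DEC repressors, 8 were tested and 2 were higher, HEY1 and HES7, with a median of 0.15. HES7, known from the segmentation clock, rose from 1.70 ± 0.379 to 3.15 ± 0.406 CPM (SD, n = 4 each; log2 fold change 0.89, edgeR adjusted p = 0.000616).

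Cyclin-dependent kinase inhibitors, of which several are activated by E-proteins and opposed by IDs, were tested for 6 of 7 genes, with 2 higher and a median of -0.013. CDKN1A, which encodes p21, went from 32.8 ± 0.755 to 37.0 ± 2.87 CPM (SD, n = 4 each; log2 fold change 0.17, edgeR adjusted p = 0.0282), and CDKN2B, which encodes p15, from 23.6 ± 3.59 to 28.9 ± 3.01 CPM (0.30, edgeR adjusted p = 0.0412). Each call ended in 6 of 16 alternatives, and without SOX11 replicate 1 neither was called (edgeR adjusted p = 0.143 for CDKN1A and 0.0743 for CDKN2B). Of 15 other ID-interacting and ID-turnover genes, 13 were tested with a median of 0.00, and ETS2 alone was called. ETS2, an ETS factor that acts on CDK inhibitor genes and is bound by ID proteins, fell from 114 ± 4.42 to 95.4 ± 5.49 CPM (-0.26, edgeR adjusted p = 2.21e-05). These shares stand beside the 20.0% of all tested genes that were called. Without SOX11 replicate 1 the counts of called genes in the 9 pathway lists were the same, except for MSX2 and the CDK inhibitors. The log2 fold changes were then 0.18 for SMAD5, 0.42 for SMAD9, -0.14 for SMURF1, 1.36 for NOG, -0.47 for FSTL3, -0.68 for BMPER and -0.18 for TWSG1. They were 1.02 for ATOH8, 1.07 for HEY1, 0.82 for HES7 and -0.29 for ETS2.

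The genes with profiles most like those of the ID genes over the 8 libraries were found by the root mean square difference of log2 CPM, each profile centred on its own mean. For ID1 these were CTDNEP1 (0.0206), PFKL (0.0259) and HIGD1A (0.0287) among 11062 candidates. For ID2, MAP3K14-AS1 (0.0606), ONECUT2 (0.0907) and AMPH (0.111) were closest among 1608. For ID3 they were UNC93B1 (0.0332), FBXL19 (0.0424) and PRKCZ (0.0429) among 5447. The SD of the profile itself was 0.0819 for ID1, 0.360 for ID2 and 0.168 for ID3, so the differences cannot be compared between the ID genes. Control replicate 4 was the lowest library for both ID2 and AMPH. Without it the log2 fold change went from 0.57 to 0.45 for MAP3K14-AS1, 0.47 to 0.34 for ONECUT2 and 0.47 to 0.38 for AMPH. CTDNEP1 (edgeR adjusted p = 0.105), HIGD1A (0.0664) and ONECUT2 (0.113) were not called. The likeness is a description over all 8 libraries, SOX11 replicate 1 included, with no test.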

How the data were processed

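Poly(A) RNA was sequenced from 8 DU145 libraries prepared by a stranded TruSeq protocol, per the labels. The file deposited by the authors holds unnormalised counts for each Ensembl identifier. The submitters' processing notes name cutadapt, FastQC, STAR 2.7.0e and GRCh38; which counter, strand option and annotation were used was not given in the sources used here. Every column matched a library by name.

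Genes passing filterByExpr (minimum count 10) were TMM-scaled and tested across all 15665 with the quasi-likelihood test of edgeR 4.0.16 in R 4.3.3 (group only; Benjamini-Hochberg; called at adjusted p under 0.05). CPM and RPKM were computed from the deposited counts with GENCODE 29 lengths, which may differ from the annotation used by the authors. Symbols matched 32053 of 32066 identifiers. Promoters came from RefSeq (GRCh38.p14), which held all 10 symbols. Ratios of raw counts were tested where both genes had at least 10 counts in each library.

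The members and lists were chosen with earlier results of these data known. Named genes are the members, up to 4 called genes per list, by adjusted p (for a list with none, its most abundant gene), and 3 genes most like each ID gene, with at least 1 CPM and 0.75 of its SD. Members that did not pass, the marker genes, ID2-AS1 and BMP7 are given beside them. Some genes of the marker lists are not reported here. Alternatives were RLE and upper quartile scaling, SOX11 removed from library sizes, testing without a filter or with 1 CPM required in 4 libraries, DESeq2 1.42.0, limma-voom (limma 3.58.1), a replicate block, and leaving out single libraries. List counts, levels and shares without SOX11 replicate 1 were added after seeing the data. Within groups, chi-square per degree of freedom between libraries was 1.43 to 3.27, so no library was taken as a repeat deposit. The test was also run on counts simulated from the means and dispersions of its own fit. Libraries were independent there, so that run does not cover dependent or unusual libraries. Floors cover counting error only.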

Additional observations from a re-analysis of the deposited data

Results flagged for a closer look

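In 11 of 77 sets of 4 libraries, 1 library lay so far from the other 3 that its gap, as a share of the whole range, passed Dixon's 95% critical value. Chance flags about 1 in 20 groups where sets are independent, which these are not: the ratios share the ID2 value of control replicate 4, and AMPH and MAP3K14-AS1 were picked for their likeness to ID2. The count is therefore not set against that rate. The luminal prostate genes KLK3, KLK2 and TMPRSS2 were added to the sets after their counts in SOX11 replicate 1 had been seen.

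ID2 in control replicate 4 was at 10.7 CPM against 16.2 to 16.7 CPM in the other controls (gap share 0.915). The same library set apart the ID1 to ID2 ratio, at 9.28 against 5.48 to 5.68 (0.934), and the ID2 to ID3 ratio, at 0.163 against 0.262 to 0.270 (0.939). AMPH, chosen for its likeness to ID2, was also low there, at 3.81 against 5.15 to 5.25 CPM (0.933).

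SOX11 replicate 1 was set apart by KLK3, at 5.86 CPM against 0 (gap share 1.00), KLK2, at 9.93 against at most 0.118 CPM (0.988), and TMPRSS2, at 1.48 against at most 0.0608 CPM (0.959). Its ID2 to ID3 ratio was 0.273 against 0.286 to 0.287 (0.913), and its MAP3K14-AS1 level was 8.51 against 7.62 to 7.66 CPM (0.950).

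SMAD9 in SOX11 replicate 4 was at 11.2 CPM against 8.45 to 8.87 CPM (0.847). AMPH in SOX11 replicate 2 was at 7.45 CPM against 6.45 to 6.58 CPM (0.871).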

How the results depend on the processing

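ID2, ID3, TCF3, SMAD6 and BMPR1A kept their direction and their calls in all 16 alternatives. ID1 kept its sign but missed the threshold with upper quartile scaling (-0.11, adjusted p = 0.0548), DESeq2 (-0.12, adjusted p = 0.0750), limma-voom (-0.11, adjusted p = 0.0514) and the replicate block in edgeR (-0.11, adjusted p = 0.0770). Leaving out 1 library at a time gave ID1 values from -0.14 to -0.085, and 2466 to 3057 called genes against 3130. The labels do not say that replicate numbers pair the libraries. Same-number correlations were 0.0632, -0.0683, -0.0412 and 0.109, and not every library correlated best with its own number. Correlations this small cannot decide whether libraries were paired. The block gave 2899 called genes, and among the members it changed the call of ID1 alone. DESeq2 called 2407 genes. Leaving out 1 library gave log2 ratios of -0.74 to -0.49 for ID1 to ID2, -0.42 to -0.37 for ID1 to ID3, 0.10 to 0.34 for ID2 to ID3 and 0.16 to 0.23 for TCF3 to TCF12. The BMP4 value turned sign without control replicate 3 (0.043), with no call in any of the 16. Of the lists, the 2 called CDK inhibitors became 0 without SOX11 replicate 1. The cause of these shifts was not tested. BMP4, NOG and HEY1 rest on few counts, and TCF4 cannot be compared.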
